A study of Mus musculus with 2 samples.

Results

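The transcripts described here are those of the CD47–SIRPα contact system, namely *Cd47* itself, its receptor gene *Sirpa*, the phosphatase genes *Ptpn6* and *Ptpn11*, the thrombospondin genes *Thbs1*, *Thbs2* and *Thbs4*, and *Cd36*. They were chosen by gene symbol. All probe sets that the array annotation gives to exactly 1 gene, and to one of these 8, were taken, which made 22 probe sets out of the 34945 with a single symbol and 8 genes out of 18193. One further probe set is annotated to one of these genes together with another gene and was left out. A probe set is a group of short probes that together read one transcript.

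The RNA came from brain mononuclear cells, the cells that gather between the dense and the lighter layer of a Percoll gradient after enzymatic digestion of the whole brain. RNA of 7 WT mice aged 10 to 15 wks was combined into one pool, and RNA of 6 CD47 KO (*Cd47*-/-, null) mice aged 12 to 16 wks into another. Each pool was amplified from 20 ng and read on 1 Affymetrix Mouse Genome array, so there is no replicate, no error between animals and no p-value for any difference given here. Both pools are labelled male, but *Xist*, the RNA of the inactive X chromosome, was bright in both, at 7070 (WT) and 6530 (KO) on its brightest probe set. *Eif2s3y*, a gene of the Y chromosome, read 188 and 461 on its brighter probe set. Which exons the null allele lacks, and the strain, are not stated in the labels or methods used here.

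CD47 is a membrane protein of most cells, and its binding to SIRPα on a phagocyte restrains engulfment. The cytoplasmic tail of SIRPα carries tyrosine motifs (ITIMs) that, when phosphorylated, recruit the tyrosine phosphatases SHP-1 and SHP-2, the products of *Ptpn6* and *Ptpn11*. Thrombospondins are secreted matrix proteins, of which thrombospondin-1 also binds CD47 and the scavenger receptor CD36. Microglia, the resident phagocytes of the brain, make SIRPα, and nerve cells make both proteins.

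The start region of *Cd47* is shown because probe sets of this gene still gave signal in the CD47 KO pool. It lies at chr16:49855404-49855703 on the plus strand (RefSeq, GRCm38.p6) and holds the 250 bases before an annotated start and the 50 after it.

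Cd47 start region: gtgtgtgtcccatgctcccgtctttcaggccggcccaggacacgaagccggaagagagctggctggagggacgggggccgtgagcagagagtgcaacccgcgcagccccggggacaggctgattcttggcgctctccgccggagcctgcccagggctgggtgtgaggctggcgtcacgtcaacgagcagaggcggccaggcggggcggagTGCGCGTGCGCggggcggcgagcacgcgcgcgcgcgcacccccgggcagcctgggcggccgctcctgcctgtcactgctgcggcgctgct

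The capitals mark the letters TGCGC repeated after 1 free base, a form of the site of the transcription factor NRF-1. This pattern, the only one searched, was looked for on both strands after the sequence had been read. It is in 789 of 32851 start regions of the same length (2.40%). The table holds start regions for 6 of the 8 genes, and those of *Ptpn6*, *Ptpn11*, *Thbs2*, *Thbs4* and *Cd36* have no match. *Sirpa* and *Thbs1* have no entry. GC content was 74.0% in the *Cd47* region and 52.7% in the median start region. A match in letters does not show a bound site, and the arrays hold no measure of binding.

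Values are MAS5 signals, the authors' linear measure of probe set brightness, and the Log2 ratio is that of the CD47 KO signal over the WT signal, as deposited. Signals of different probe sets are not on a common scale of abundance. Expressed here means at or above the array median, which was 161 (WT) and 146 (KO), in 1 pool or both. By this rule 18 of the 22 probe sets were expressed, and 7 of the 8 genes had at least 1 of them. *Thbs4* had none. In bulk RNA, fewer cells of a type and less RNA per cell cannot be told apart.

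*Cd47* was the single gene of the 8 that passed 2-fold. All 5 of its probe sets were lower in CD47 KO cells, and all 5 passed the limit. The brightest read 5816 (WT) and 1688 (KO), with a Log2 ratio of -1.79. The second had signals of 5537 and 1522, with a Log2 ratio of -1.86.
The next pair, of middle brightness, had 2440 and 894 (-1.45) and 2307 and 671 (-1.78). The dimmest had 1017 and 334, with a Log2 ratio of -1.61. Each of the 5 KO signals was still above the median of the CD47 KO array. The KO signal amounted to between 27.5% and 36.7% of the WT signal. These KO signals lay at percentiles from 66.3 to 90.6 of the CD47 KO array, against 85.0 to 97.8 in WT. The positions of these probes on the null allele are unknown here, and the remaining signal measures RNA, not protein.

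**Figure D1:**
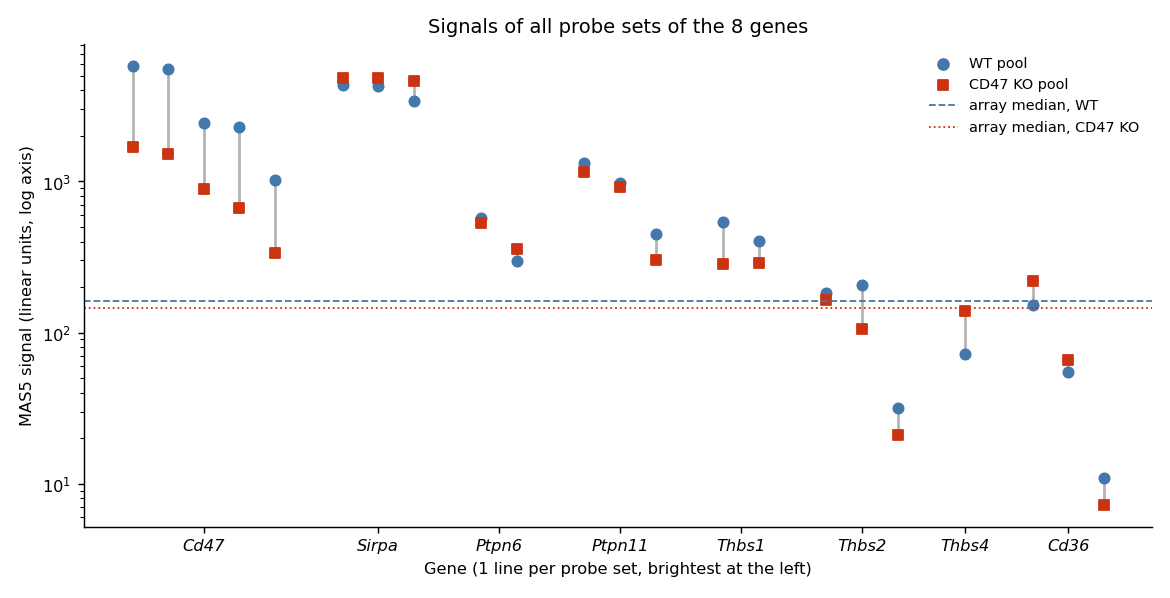
MAS5 signal (log axis) of each of the 22 probe sets of the 8 genes in the WT pool (circles) and the CD47 KO pool (squares), with 1 array per genotype and the array medians as horizontal lines. The 5 *Cd47* pairs are widely separated, the *Sirpa* pairs lie close together near the top, and *Thbs4* with parts of *Thbs2* and *Cd36* lie below the medians.

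The background to this count is that 1162 of 21167 expressed probe sets on the arrays were more than 2-fold lower (5.49%) and 836 more than 2-fold higher (3.95%). The 5 *Cd47* probe sets made up all the members past 2-fold, and none was higher. Counted by gene on the brightest expressed probe set, 638 of 11695 genes were lower (5.46%) and 416 higher (3.56%), against 1 of 7 member genes lower and 0 higher. The 1 lower gene was *Cd47*, the gene that is null in the KO mice, and no other member gene passed. The split over all genes depends on scaling, with 471 lower and 583 higher under median centring, 531 and 509 under quantile and 543 and 504 under loess normalization.

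Bright probe sets differed less between the arrays than dim ones, and the *Cd47* probe sets are bright. In the brightest quartile of expressed probe sets 28 of 5292 were more than 2-fold lower (0.529%), and 4 of these 28 were *Cd47*. In the next quartile, which holds the dimmest *Cd47* probe set, 85 of 5292 passed (1.61%). Between 4 and 7 probe sets of the brightest quartile had a lower Log2 ratio than any given *Cd47* probe set in it, the other *Cd47* probe sets included. Without replicates, the SD between probe sets of one gene served as the internal measure of error. This SD measures how far probe sets of one gene differ on the same 2 arrays, not how pools of animals differ. It was 0.318 in the brightest quartile and 0.450, 0.561 and 0.832 in the dimmer ones. Every *Cd47* ratio was larger than 3 times the SD of its quartile, and among themselves the 5 ratios had an SD of 0.168.

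**Figure D2:**
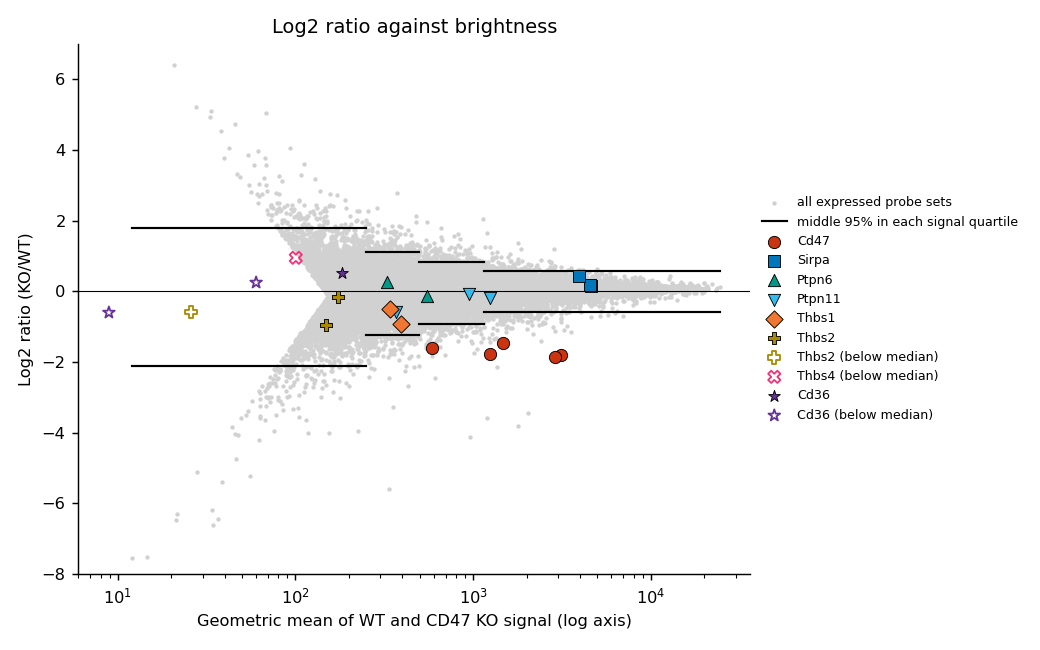
Log2 ratio (KO/WT) against the geometric mean of the WT and CD47 KO signals (log axis), with all expressed probe sets in grey and black lines at the limits of the middle 95% in each signal quartile. The 5 *Cd47* probe sets lie between -1.45 and -1.86, outside these limits, and the 13 other expressed member probe sets lie inside. Open symbols were below both medians.

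Genes with every expressed probe set past 2-fold in the same direction were rare on these arrays. Of 2362 genes with 3 or more expressed probe sets, 3 had every one of them more than 2-fold lower, namely *Cd47*, the growth hormone gene *Gh* and *Sec14l3*, and 0 had every one more than 2-fold higher. With 5 or more expressed probe sets there were 403 genes, of which *Cd47* was the 1 that was lower throughout. Among 6917 genes whose brightest probe set reached the 75th percentile of either array, *Cd47* had the 16th lowest Log2 ratio. The genes nearest to it over the 2 arrays were *Gga2* (-2.11), *Rpp25* (-1.89) and *Rsad1* (-1.82) on one side and *Sh3d19* (-1.78), *Aldh1a2* (-1.77) and *Cbr2* (-1.76) on the other. Their WT signals were between 628 and 1031, below that of *Cd47*. With 2 arrays this likeness is a single ratio and places no gene in a common group.

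**Figure D3:**
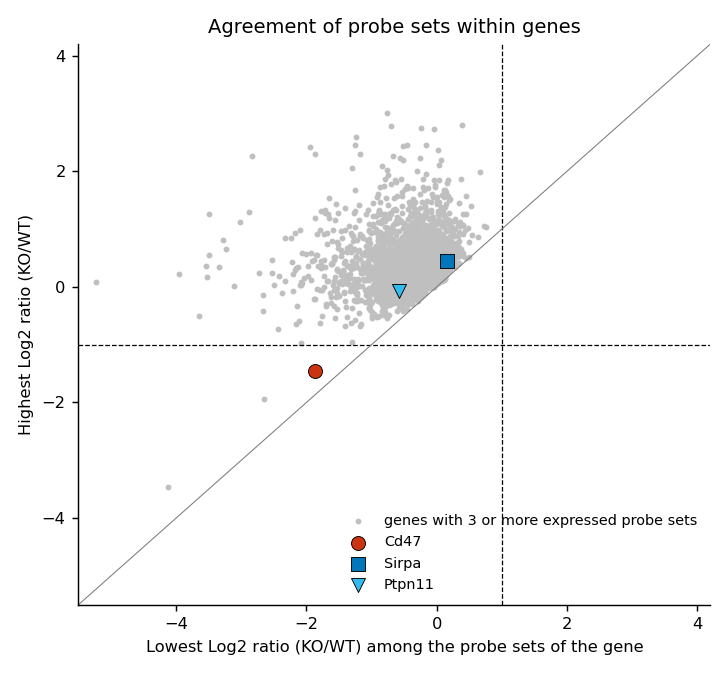
Lowest against highest Log2 ratio (KO/WT) among the expressed probe sets of each of 2362 genes with 3 or more. Points below the horizontal dashed line have all probe sets more than 2-fold lower. *Cd47* (-1.86 and -1.45) is one of 3 such genes, while *Sirpa* (0.16 and 0.44) and *Ptpn11* (-0.57 and -0.07) lie with the bulk.

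*Sirpa*, the receptor gene, was bright in both pools and slightly higher in CD47 KO cells on each of its 3 probe sets. The signals were 4354 in WT and 4848 in CD47 KO cells on the first, 4261 and 4838 on the second and 3396 and 4604 on the third. On each probe set the KO signal was the higher one. The Log2 ratios were 0.16, 0.18 and 0.44, that is 1.11-, 1.14- and 1.36-fold. The third alone exceeded the SD between probe sets of 0.318. Of 5292 probe sets of like brightness, 1630 had a higher ratio than the first, 1424 than the second and 303 than the third. Over the settings that change the signals the 3 ratios stayed above 0, with a lowest value of 0.10 and a highest of 0.58. None reached 2-fold.

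Transcripts of microglia, which make SIRPα, were also slightly higher in this pool. Of 14 listed microglial genes 13 had a named probe set, and all 13 were expressed. On the brightest probe set all 13 were higher in CD47 KO cells. The median Log2 ratio was 0.25, with a range from 0.02 to 0.66. Their summed signal was 86873 (WT) and 103011 (KO), and the brightest were *Csf1r* (0.07) and *Olfml3* (0.43). The *Sirpa* ratios lie inside that range. *Sall1*, the lowest at 0.02, had -0.58 on its other expressed probe set. Neuronal genes, from the other main source of *Sirpa* in the brain, had a median of 0.00, with 6 of 11 higher and summed signals of 47201 and 48922; *Snap25* read 17563 and 17607 and *Nefl* 5342 and 5623. The part of either cell type in the *Sirpa* values was not tested.

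The phosphatase genes showed small ratios, of both signs for *Ptpn6* and below 0 for *Ptpn11*. *Ptpn6*, which encodes SHP-1 of haematopoietic cells, read 574 (WT) and 530 (KO) on its brighter probe set, with a Log2 ratio of -0.12. The other probe set, whose name marks possible cross-hybridisation, had 298 and 357, a Log2 ratio of 0.26. The sign of the brighter one turned under median centring (0.02), and the mean of both was 0.07. Neither ratio exceeded the SD between probe sets.

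*Ptpn11*, which encodes the widely expressed SHP-2, was lower on all 3 probe sets as deposited. The brightest had signals of 1324 and 1158, with a Log2 ratio of -0.19. The second had 970 and 925, with a ratio of -0.07 that ran from -0.08 to 0.07 over the settings that change the signals. The third and dimmest had 448 and 301, with a ratio of -0.57 against an SD of 0.561. The Log2 ratio was thus farthest from 0 on the dimmest probe set, and the mean over the 3 was -0.28.

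The 4 expressed probe sets of *Thbs1* and *Thbs2* were all lower in CD47 KO cells, but 1 of *Thbs2* counted as expressed through the WT array alone, a choice that favours a lower ratio. *Thbs1*, which encodes the thrombospondin best known as a CD47 ligand and is abundant in platelets, read 539 (WT) and 282 (KO), with a Log2 ratio of -0.93, or 1.91-fold lower. Its other probe set had 406 and 287, a ratio of -0.50. Both probe sets were above the medians on both arrays. The first ratio exceeded the SD between probe sets of 0.561, the second did not, and 324 of 5291 probe sets of like brightness had a ratio below the first. Over the settings that change the signals they ran from -0.93 to -0.80 and from -0.50 to -0.36.

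*Thbs2*, a matrix protein gene of fibroblasts and other stromal cells, sat close to the array medians. One probe set had signals of 183 and 164 (Log2 ratio -0.16) and another 207 and 106 (-0.96). The second is the one that reached the median in the WT array alone. The third, below the median on both arrays, had 31.8 and 21.1 (-0.59). The SD between probe sets at this brightness was 0.832, and the mean over the 2 expressed ones was -0.56.

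*Thbs4*, which encodes a thrombospondin of muscle, tendon and the nervous system, was read by 1 probe set with signals of 72.3 in WT and 139 in CD47 KO cells, below both medians. Its Log2 ratio of 0.95 is near 2-fold, and it ran from 0.68 to 1.12 as low signals were treated or the arrays normalized in other ways. With signals this low the value is not firm. The rest of the family, looked at after the values were known, was below both medians. *Thbs3* had signals of 74.9 and 10.5, and *Comp*, the cartilage member, had 33.3 and 71.8.

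*Cd36*, the scavenger receptor gene for oxidised lipids and thrombospondin-1, had 1 expressed probe set, which reached the median in the CD47 KO array alone. Its signals were 152 and 218, a Log2 ratio of 0.52. The other 2 had 55.1 and 65.4 (0.25) and 11.0 and 7.24 (-0.60), all below the medians. The 2 brighter probe sets were higher in CD47 KO cells and the dimmest was lower. The expressed ratio was smaller than the SD of 0.832 and kept its sign over the settings that change the signals (0.42 to 0.65).

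Outside *Cd47*, then, 13 member probe sets were expressed, of which 8 were lower and 5 higher in CD47 KO cells and 0 passed 2-fold. All 13 lay inside the middle 95% of probe sets of their brightness. Of these, 1 probe set each of *Thbs2* (lower) and *Cd36* (higher) was counted through 1 array alone. With 1 array per genotype, differences of this size cannot be separated from the difference between any 2 arrays.

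Markers of cells that can make thrombospondins did not share a direction. Those of fibroblasts, vessel cells and platelets were mostly, but not all, lower in CD47 KO cells. Astrocyte markers were mostly higher, with 7 of 9 expressed genes higher and a median Log2 ratio of 0.25 (27216 and 32372). Their brightest genes were *Slc1a2* (0.28) and *Gja1* (0.25). Fibroblast and meningeal markers had 10 of 11 expressed genes lower and a median Log2 ratio of -0.71, with summed signals of 12514 and 8080. The brightest of them were *Igfbp2* (-0.65) and *Igf2* (-0.52), both secreted by the meninges. Endothelial markers had 10 of 12 lower and a median of -0.42 (17645 and 15036), with the glucose transporter gene *Slc2a1* at -0.10 and the organic anion carrier gene *Slco1a4* at 0.08. Markers of pericytes and smooth muscle had 6 of 10 lower and a median of -0.35 (13220 and 9707), and the brightest were *Rgs5* (4097 and 2676) and *Acta2* (4004 and 2002). Within that list *Abcc9* (1.17), *Higd1b* (0.56), *Kcnj8* (0.33) and *Vtn* (0.18) were higher, so its members did not move together. The other expressed *Abcc9* probe set had -0.06.
Platelet markers had 4 of 5 expressed genes lower and a median of -0.59 (4142 and 2796). The brightest of these were *Nrgn*, which neurons also express, with -0.59 and *Pf4*, which border macrophages share, with -0.47. The other expressed platelet genes differed in direction. *Ppbp* had 452 and 157.5 (-1.52) and *Gp1bb* 292.5 and 98.6 (-1.57), while *Gp9* had 384.5 and 467.8 (0.28). The platelet genes *Itga2b*, *Gp5*, *Gp6*, *Treml1* and *Tubb1* were below both medians. The part of these cells in the *Thbs1* and *Thbs2* values was not tested.

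Markers of the other cells of the preparation were as follows. Erythroid markers had a median of 0.47 with 3 of 4 higher. Oligodendrocyte markers had a median of -0.17 with 5 of 10 lower. Neutrophil markers had -0.29 with 7 of 9 lower, and T, B and NK cell markers -0.22 with 5 of 8 lower. Monocyte and border macrophage markers had -0.47 with 8 of 9 lower and summed signals of 13518 (WT) and 10648 (KO). The part of any of these cells in the *Thbs1* and *Thbs2* values was likewise not tested. Over all 11695 expressed genes the median was 0.00, with 50.3% higher.

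**Figure D4:**
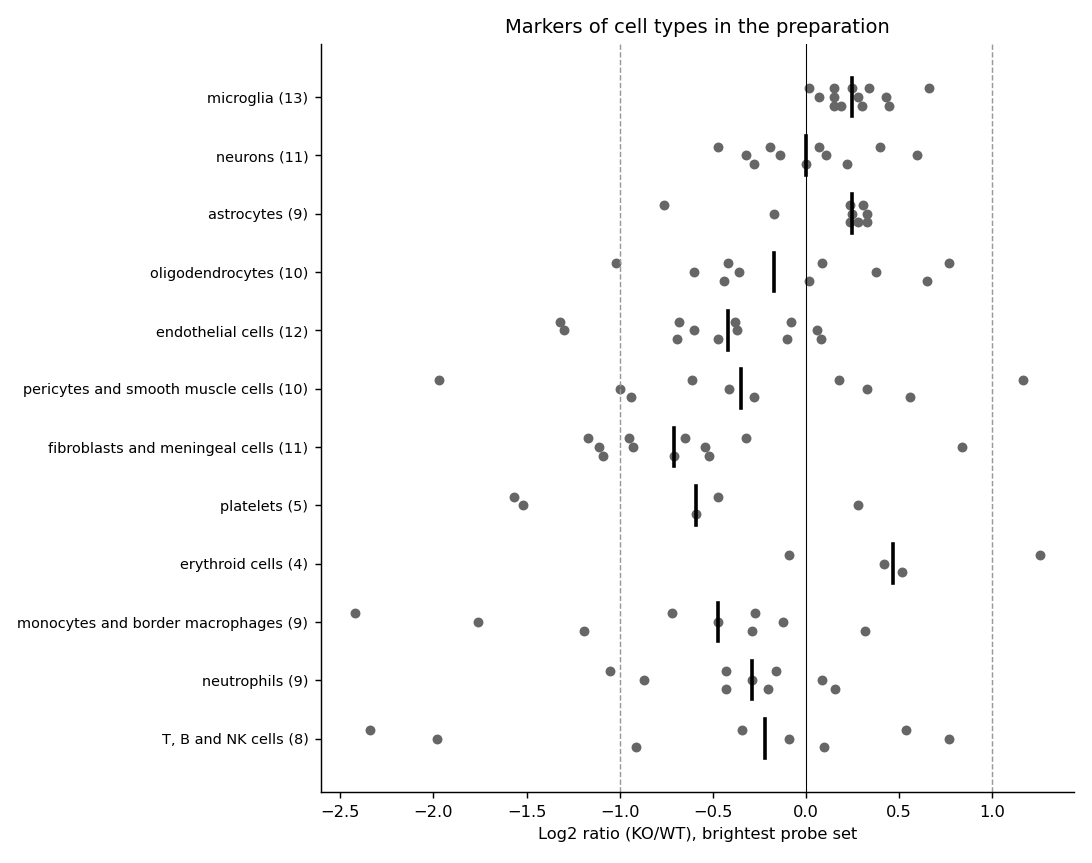
KO/WT Log2 ratios of markers of each cell type that were expressed, as points (brightest probe set; gene numbers beside the names), and a black bar at each list median and dashed lines at 2-fold. All 13 microglial genes lie at or right of 0.02, and the fibroblast and meningeal median lies at -0.71.

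Around the 8 genes, 71 other expressed genes of the listed pathways were measured, of which 2 were more than 2-fold higher and 0 lower on the brightest probe set. Other expressed probe sets of some of these genes did pass 2-fold. They were lower for *Clec4a2* (-1.94), *Ceacam1* (-1.57), *Itga4* (-1.12) and *Rxra* (-1.05) and higher for *Itgb1* (2.1) and *Itgb3* (1.27). Some of the 9 lists hold members by design. The lists were compared with all expressed genes, of which 3.56% were more than 2-fold higher and 5.46% more than 2-fold lower. By sign alone, 50.3% of all expressed genes were higher. Among the SHP phosphatases and the adaptors of SIRPα, 6 of 10 were higher, with a median of 0.07. The largest ratios of bright genes were those of *Ptk2b*, a focal adhesion kinase, with -0.43 (signals 3378 and 2504) and *Fyb*, an adaptor of haematopoietic cells, with 0.34 (1047 and 1328). The second *Ptk2b* probe set had 0.35, so the probe sets of this gene differed in sign. *Sirpb1a*, a relative of *Sirpa*, was close to the medians and had -0.02 (189 and 187). The surfactant protein genes *Sftpa1* and *Sftpd*, which encode further ligands of SIRPα, were below both medians. The median of that list of 3 expressed genes was -0.02, and 0.07 without *Cd47*.

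Receptors and partners of thrombospondins and CD47 had 12 of 14 higher and a median of 0.10. *Tgfb1*, the gene of a cytokine that thrombospondin-1 activates, had signals of 270 and 632 and a Log2 ratio of 1.23, but its other expressed probe set had 0.07. The integrin genes *Itgav* and *Itgb3*, whose product binds CD47 in cis, had 0.11 (3771 and 4071) and 0.15 (1139 and 1262), although the other *Itgb3* probe set had 1.27. *Calr* and *Lrp1*, which encode an engulfment signal on the target and its receptor on the phagocyte, had 0.07 and 0.06, and the other *Lrp1* probe set had 0.60. Genes acting inside the cell with CD47 had 5 of 6 higher and a median of 0.09, with the inhibitory G protein genes *Gnai3* at 0.43 and *Gnai1* at 0.40 and another probe set of each below 0 (-0.27 and -0.17).

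Genes that work with CD36 in lipid uptake and sensing had 6 of 9 higher and a median of 0.16. The nuclear receptor gene *Rxra* was dim and passed 2-fold, with signals of 126 and 256 and a ratio of 1.02, while its other expressed probe set had -1.05. The fatty acid-binding protein gene *Fabp5*, much brighter, had 0.31 (7023 and 8693).

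A list of other immune cell receptors, many of them inhibitory and with ITIMs, had 10 of 14 expressed genes higher and a median of 0.12. Not all members signal as SIRPα does, since the products of *Siglech* and *Cd200r1* carry no ITIM. *Cd300lf*, a lipid-sensing receptor of myeloid cells, had signals of 328 and 614 (Log2 ratio 0.90), and *Siglece*, a sialic acid receptor, had 411 and 715 (0.80). None of the 14 passed 2-fold on the brightest probe set. Other expressed probe sets of *Clec4a2* (-1.94) and *Ceacam1* (-1.57) were more than 2-fold lower. A list of ligands and surface proteins that restrain immune cells had 5 of 6 higher and a median of 0.25. Its largest ratios of bright genes were those of *Cx3cl1*, the ligand of the G protein-coupled receptor CX3CR1, with 0.45 and of *Cd200*, whose product acts on a myeloid receptor, with 0.27. Engulfment receptors and bridging molecules were divided, with 7 of 14 higher and a median of -0.04 (0.09 under median centring and 0.03 where the median was required on both arrays). *Pros1* and *Gas6*, which encode the paired ligands of the TAM receptors, had 0.59 (3408 and 5128) and -0.37 (1195 and 923).

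**Figure D5:**
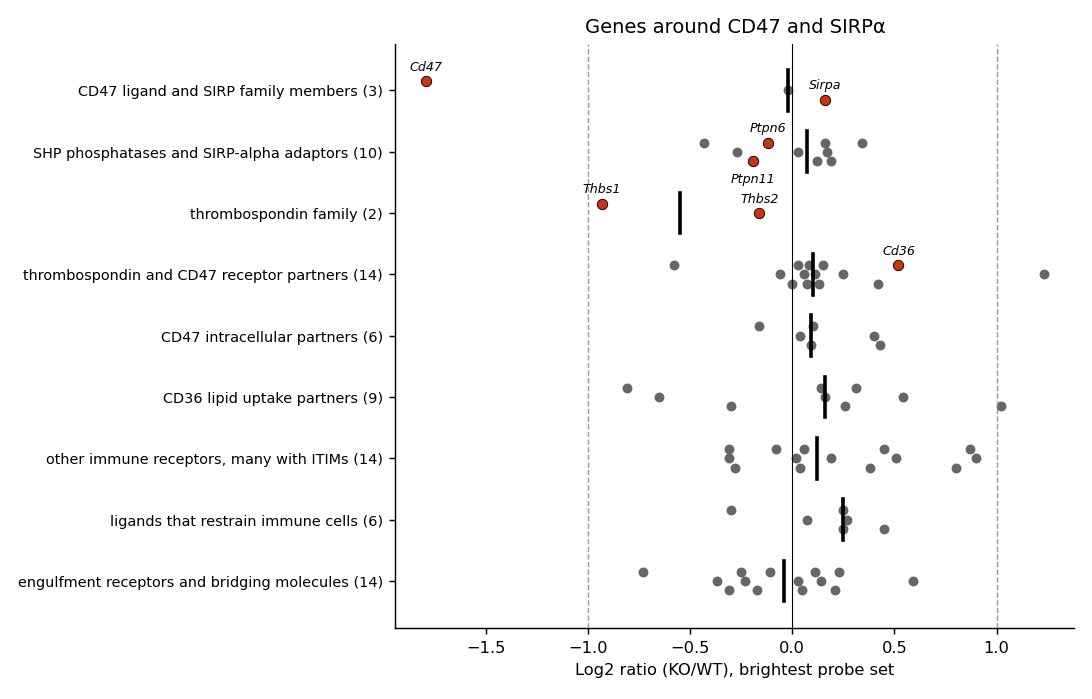
KO/WT Log2 ratios of pathway genes that were expressed, by list, as points (brightest probe set; gene numbers beside the names), and list medians as black bars and dashed lines at 2-fold. The 7 expressed member genes are in red and named, and *Cd47* at -1.79 is the one point left of -1.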

How the data were processed

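Gene expression was read in RNA pooled by genotype, 1 array per pool. The deposited values are intensities, MAS5 signals per probe set on a linear scale, which the authors made with the Expression Console software (version not given in the sources used here). After removal of 2% of values at each end, their mean was 500.002 on both arrays. The 18 hybridization controls had Log2 ratios from -0.07 to 0.15. The number of arrays limits precision.

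Symbols came from the platform annotation (34958 probe sets with 1 symbol, 932 with several, 9160 with none), updated through gene identifiers with the RefSeq table of GRCm38.p6, which matched 34754. A gene took the value of its brightest expressed probe set. Genes of the pathway lists were named when past 2-fold, otherwise as the 2 largest ratios among bright genes (75th percentile or higher on 1 array or both), with a few others, such as *Sirpb1a*, *Thbs3*, *Comp*, *Itgav*, *Itgb3*, *Calr*, *Lrp1* and *Fabp5*, chosen after their values were seen. For marker lists the 2 brightest genes were named where the list is set beside a result. Others of the microglial, pericyte and platelet lists were named after their values were seen. Members and lists were chosen with earlier results of these data known. The calculation was tested on simulated arrays, and 10 alternative settings were tried. Python 3.11.15, numpy 2.4.6, pandas 2.3.3 and statsmodels 0.14.6 were used.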

Additional observations from a re-analysis of the deposited data

How the results depend on the processing

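No paired analysis was possible because each genotype has 1 array. Past 2-fold, 5 member probe sets and 1 gene were lower and 0 higher under all 10 alternatives. *Cd47* ran from -1.83 to -1.65, *Sirpa* from 0.10 to 0.29, *Ptpn11* from -0.28 to -0.06, *Thbs1* from -0.93 to -0.72, *Thbs2* from -0.56 to -0.03 and *Cd36* from 0.42 to 0.65. Over all genes, 2221 were lower and 1489 higher with no threshold, 147 and 97 with that at the 75th percentile, and 249 and 132 with the median required on both arrays. *Ptpn6* ran from -0.12 to 0.07 and changed sign in 2 of 10. *Thbs1* and *Thbs2* have 9 values and *Cd36* 8, since a stricter threshold left no probe set. Median centring raised the median of all probe sets from 0.01 to 0.15. Medians of 5 lists moved by more than the error taken from the spread between probe sets. The list of *Cd47* and SIRP genes had -0.81 with the threshold at the 75th percentile, where 2 genes were left. T, B and NK cell markers had -0.63 with no threshold. Oligodendrocyte markers had 0.02 at the 75th percentile, 0.02 with the median required on both arrays and -0.39 without probe sets of possible cross-hybridisation. Microglial markers had 0.39 and neuronal markers 0.14 under median centring. The cause of these moves was not tested. Signals near or below the array medians, those of *Thbs2*, *Thbs4* and *Cd36*, limit what can be read of these genes, beside the lack of replicates.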
